A study of Mus musculus with 18 samples.

Results

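Calcium channels, pumps and calcium signalling genes were followed as a list of 41 genes chosen by symbol, out of 24421 genes in each deposited table. All 41 were found in the 3 tables. They comprise 7 pore-forming and 6 auxiliary subunits of voltage-gated channels, 3 receptors that release stored calcium, 5 genes of store-operated entry, 5 TRP channels, 6 pumps, 2 exchangers, 2 genes of the mitochondrial uniporter and 5 calmodulin or calmodulin kinase genes. Expression was read from RNA-seq counts of 18 libraries, all labelled as organoids of the mouse esophagus, which are cultures grown in a basement membrane gel. Every group was declared Trp53-/- with Myc overexpression (Myc OE) and a Cdkn2a guide (sgCdkn2a). Premalignant organoids carried a control guide (sgScr, n = 3) or a guide against Tgfbr2, which encodes the type II receptor for TGF-beta, in sets numbered sgTgfbr2_1 (n = 2) and sgTgfbr2_2 (n = 2). Tumor organoids carried sgScr (n = 3) or sgTgfbr2 (n = 2). A further set of sgTgfbr2 tumor organoids was cultured for 72 h and then given DMSO as vehicle (n = 3) or pinaverium bromide at 2 µM, a drug that blocks L-type calcium channels (PB, n = 3). The listed medium of all groups held A83-01 at 2 µM, which inhibits the type I receptor kinase for TGF-beta, as well as Y27632, Noggin, EGF and FGF10. The labels do not say whether the numbered sets differ by guide or by culture, whether a line is 1 clone, what drives Myc, or whether a replicate is a culture or an animal of its own. The p-values thus rest on library-to-library spread alone, and that spread may be technical.

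Cells keep cytosolic calcium low by pumping it into the endoplasmic reticulum (SERCA pumps, encoded by Atp2a genes), into the Golgi (Atp2c1) or out of the cell (PMCA pumps, encoded by Atp2b genes). Signals raise it again through IP3 receptors on the stores, through STIM sensors that open ORAI channels once the stores empty, through TRP channels, and in excitable cells through voltage-gated channels. A voltage-gated channel needs a pore (a Cacna1 gene), and its beta (Cacnb) and alpha-2/delta (Cacna2d) subunits set its trafficking and gating. In stratified epithelium such as that of the esophagus, calcium is a known trigger of differentiation and holds cadherin junctions together.

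Libraries held 14993749 to 21784140 counts, so that 3 counts stand for 0.138 to 0.200 CPM (counts per 1000000 counts of the library total). Tgfbr2 was lower with its guide by edgeR in premalignant (log2 fold change -0.86 ± 0.14, SE, adjusted p = 0.0013) and tumor libraries (-1.08 ± 0.13, adjusted p = 4.2e-07). All 7 squamous epithelial markers on the list reached 1 CPM in every library. Myc stood at 41.8 to 47.5 CPM in tumor sgScr and 51.8 and 93.3 in tumor sgTgfbr2, far below the 289.8 to 647 of all other libraries, which share the Myc OE label. Cdkn2a, whose guide every group is labelled with, stood at 0 to 1.11 CPM in tumor sgScr and at 136 and 168 in tumor sgTgfbr2 (7.72 ± 0.33, adjusted p = 5.3e-15), and at 266 to 382 in the other libraries. The tumor sgScr and tumor sgTgfbr2 libraries also stood apart in the RNA of other tissues. In tumor sgScr, 9 of 9 skeletal muscle markers reached 1 CPM, and they summed to 17267 to 17807 CPM, against 2.17 to 3.02 in tumor sgTgfbr2 and 8.18 to 8.40 in vehicle. In tumor sgTgfbr2, 7 of 7 gastric gland markers summed to 28232 to 31301 CPM, against 0 to 0.211 in tumor sgScr and 2.36 to 3.31 in vehicle. Fibroblast markers summed to 2842 to 3032 CPM in tumor sgScr and 2280 to 2340 in tumor sgTgfbr2, and to at most 4.51 in any other library. Immune markers summed to 922 to 939 CPM in tumor sgScr and 754 to 785 in tumor sgTgfbr2, and to at most 60.8 in any other library. Endothelial markers summed to 100 to 117 and 95.8 to 103 CPM, and to at most 2.07 in any other library. The labels call these 5 libraries organoids, while muscle, fibroblast, immune and endothelial markers are not those of epithelial cells. Whether tissue was sequenced was not tested. Below, tumor sgScr and tumor sgTgfbr2 mean the libraries labelled so. The part that this RNA plays in the tumor results was not tested, and in bulk RNA fewer cells of a type and less RNA per cell cannot be told apart.

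Few voltage-gated channel genes were detected at a steady level in the organoids that were given pinaverium bromide or vehicle. Taking a gene as expressed when it reached 1 CPM in every library of a group, 3 of the 13 voltage-gated members were expressed in vehicle (Cacna1a, Cacnb1 and Cacnb3) and 2 under PB (Cacna1a and Cacnb3). In premalignant sgScr 3 were expressed (Cacna1a, Cacnb3 and Cacnb4), in sgTgfbr2_1 7, in sgTgfbr2_2 8, in tumor sgScr 8 and in tumor sgTgfbr2 9. Of the 7 pore genes alone, 1 was expressed in premalignant sgScr, vehicle and PB, where it was Cacna1a, 3 in each sgTgfbr2 set and 4 in each tumor group. Over all 41 members the counts were 29 in premalignant sgScr, 32 and 33 in the sgTgfbr2 sets, 34 in each tumor group, and 25 in vehicle and in PB. The count of voltage-gated members rests on the threshold: at 0.5 CPM it became 8 in premalignant sgScr and 6 in both vehicle and PB. Leaving out premalignant sgScr replicate 2 raised its count from 3 to 5, since Cacna1c and Cacna1g then passed.

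The L-type pore genes, which encode the channel class that pinaverium bromide blocks, were close to the counting limit in vehicle. Cacna1c, the cardiac and smooth muscle L-type pore, stood at 0.182, 0.977 and 0.250 CPM in vehicle and at 0.200, 0.462 and 0.451 under PB. The groups overlapped, and the gene was too low to be tested. Cacna1d, the neuroendocrine L-type pore, held 3 counts over the 3 vehicle libraries, all of them in replicate 2, and 39 counts under PB. The other L-type pores, which are not among the 41, were the skeletal muscle gene Cacna1s at a mean of 0.103 CPM in vehicle and the retinal gene Cacna1f at 0.0416. Higher L-type values were seen in the tumor libraries that also held muscle or stromal RNA. There Cacna1c stood at 3.80, 3.57 and 3.92 CPM in sgScr and at 5.37 and 4.75 in sgTgfbr2, and Cacna1d at 1.64, 1.58 and 1.07 against 2.28 and 2.29. Smooth muscle markers summed to 1863 to 2052 CPM and 1558 to 1728 CPM in these groups, against 4.17 to 4.99 in vehicle.

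Among the other pores, Cacna1a, which encodes the P/Q-type channel of nerve terminals, was the one pore gene above 1 CPM in all 18 libraries. Its values were 6.42, 6.12 and 5.18 CPM in vehicle and 3.73, 4.76 and 4.76 under PB. These did not overlap, but with TMM scaling the difference did not pass the test (log2 fold change -0.28 ± 0.16, edgeR adjusted p = 0.10). With libraries scaled to their totals in place of TMM, 1 of the 4 tested pore genes was lower under PB and 1 higher. Cacna1b, the N-type pore, ranged from 0.528 to 1.12 CPM over the vehicle and PB libraries. Cacna1g, a T-type pore that opens at low voltage, ranged from 0.687 to 0.781 CPM in vehicle and from 0.793 to 1.13 under PB, and the difference did not pass (0.53 ± 0.36, adjusted p = 0.18). Cacna1h, a second T-type pore, had 11 counts in vehicle and 0 under PB, at least 3.50-fold lower when the floor is 3 counts over the group. It was too low for the filter used here, and was lower in the authors' deposited DESeq2 result (-4.11, adjusted p = 0.032). Cacna1e, the R-type pore, had no count in vehicle, PB, tumor sgTgfbr2 or either sgTgfbr2 set, which allows up to 0.0627 CPM over the vehicle group. Such intervals and floors cover counting error only.

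The auxiliary subunits were led by Cacnb3. It stood at 22.5, 18.4 and 19.2 CPM in vehicle and at 15.5, 16.8 and 16.3 under PB, without overlap and without passing the test with TMM scaling (-0.17 ± 0.09, edgeR adjusted p = 0.069). With library totals in place of TMM, all 3 tested auxiliary subunits, Cacnb1, Cacnb3 and Cacnb4, were called lower under PB. By that scaling 6155 of all 12801 genes tested were lower. Cacnb1, the beta subunit of the skeletal muscle channel, was at 2.00, 1.76 and 1.87 CPM in vehicle and at 1.20, 0.793 and 0.966 under PB. It fell under PB (-0.79 ± 0.29, adjusted p = 0.014), a call lost by DESeq2 and without PB replicate 2. Cacnb4 lay between 0.333 and 1.31 CPM over these 6 libraries, Cacnb2 at or below 0.545, Cacna2d1 at or below 0.312 and Cacna2d2 at or below 0.0667.

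**Figure D1:**
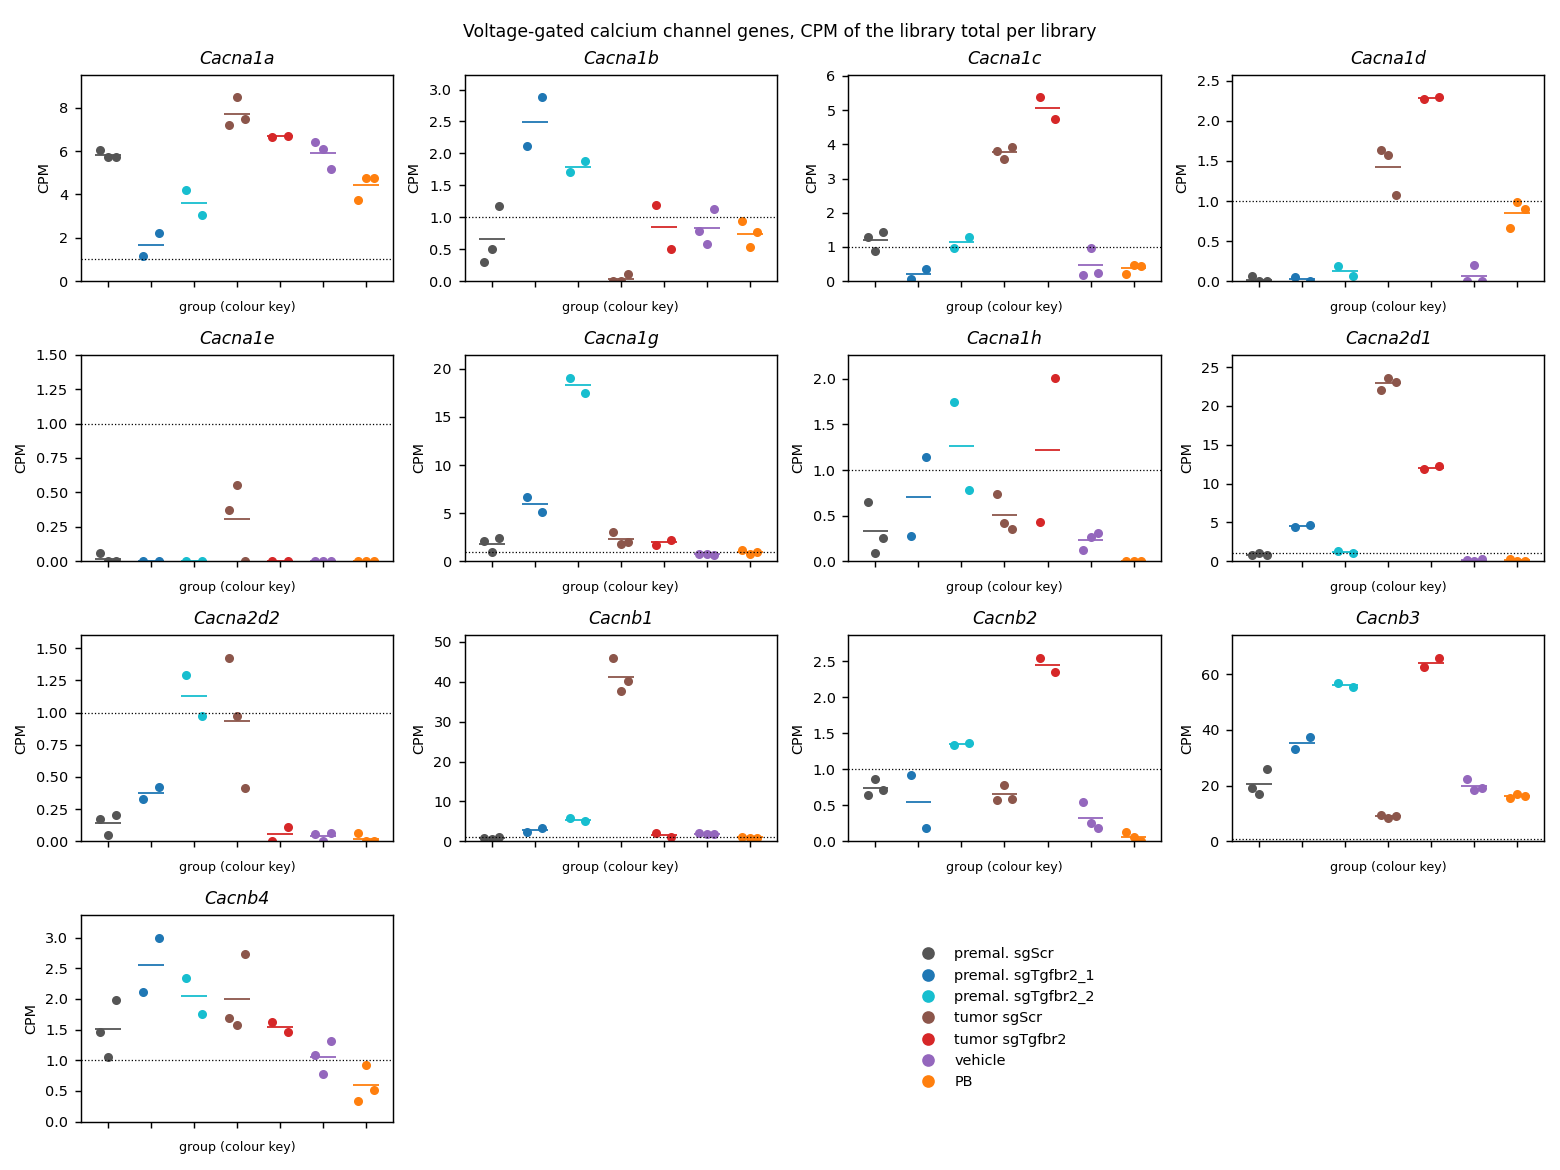
Each panel shows 1 voltage-gated channel gene, with CPM of the library total on the vertical axis (a separate scale per panel) and the 7 groups in the order of the colour key along the horizontal axis. Points are libraries, bars are group means and the dotted line is 1 CPM. Cacna1a and Cacnb3 are above the line in every library, and Cacnb1 reaches 37.7 to 46.0 CPM in tumor sgScr alone.

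The abundant part of the calcium machinery in vehicle organoids was made of store, pump and calmodulin genes. Per kilobase of merged exons, which allows genes to be compared, the mean level was 219 CPM per kb for the calmodulin gene Calm2 and 83.1 for Calm3. It was 90.5 for Atp2a2, the SERCA2 pump, and 50.1 for Itpr3, the type 3 IP3 receptor, against 5.77 for Itpr2 and 2.99 for Itpr1. Micu2, a gatekeeper of the mitochondrial uniporter, stood at 25.4 CPM per kb, Trpv4, an osmosensitive and heat-sensitive cation channel, at 16.9, and the plasma membrane pump Atp2b1 at 16.8. The 5 genes of store-operated entry lay close together, from 4.64 for Orai1 to 7.64 for Stim2. By the same measure Cacnb3 stood at 4.99, Cacna1a at 0.517, and the other 6 pore genes at or below 0.0837. Trpv6, an epithelial calcium entry channel, and Trpc1 were at 0.174 and 0.140, and the muscle and neural exchanger gene Slc8a1 at 0.0580.

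**Figure D2:**
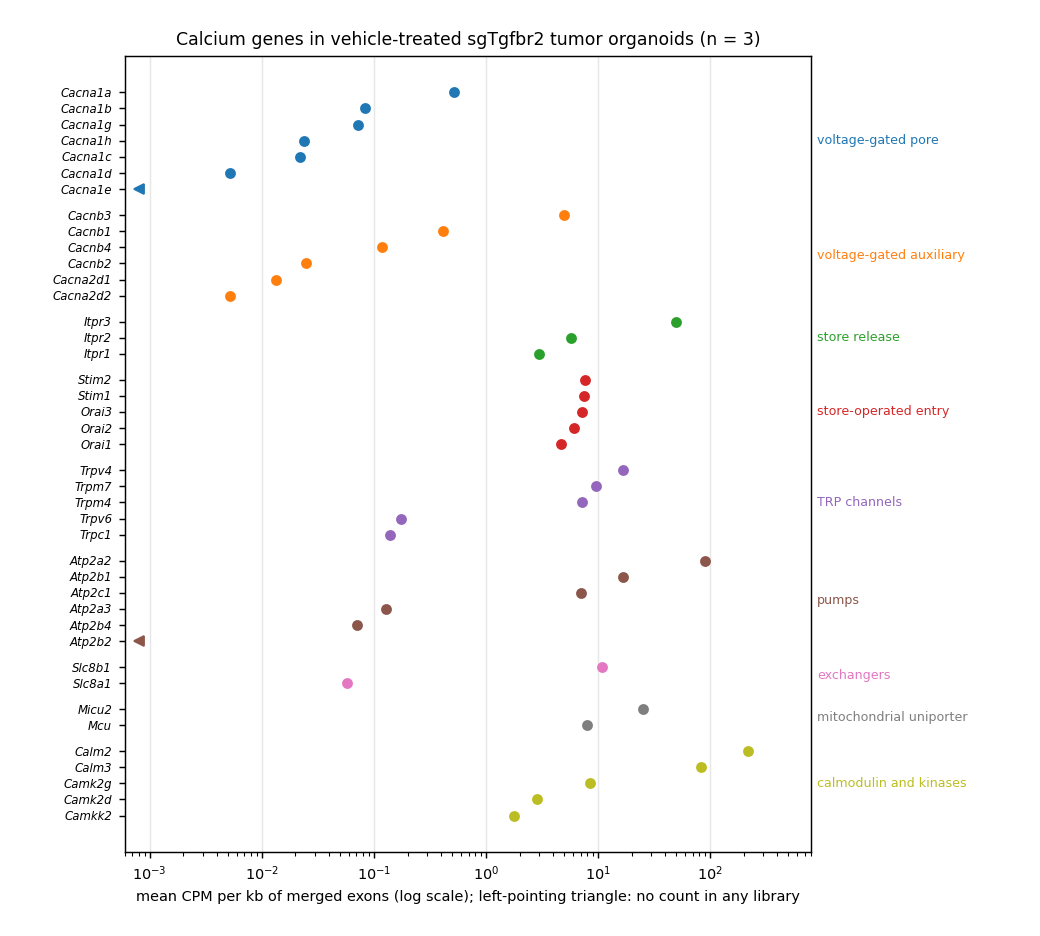
Mean CPM per kb of merged exons in the 3 vehicle libraries (horizontal axis, logarithmic) for each of the 41 genes, grouped and coloured by role. Calm2, Atp2a2 and Calm3 lie to the right, the voltage-gated pores lie below 1 CPM per kb, and left-pointing triangles mark Cacna1e and Atp2b2, which had no count.

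In premalignant organoids the comparison asked how loss of Tgfbr2 relates to expression, and most calcium genes that differed were higher with the Tgfbr2 guide. Of the 36 members with enough counts to be tested, 17 were higher and 3 lower with both sets pooled (edgeR quasi-likelihood test, Benjamini-Hochberg adjusted p under 0.05). Over all 13098 genes tested, 46.2% passed, 22.7% higher and 23.5% lower, while 47.2% of the members were higher and 8.33% lower. The median log2 fold change was 0.49 over the members and -0.0037 over all genes. Since the members were chosen with earlier results of these data known, this contrast describes the list and is no test of it. By role, 3 of 5 auxiliary subunits, 2 of 5 pores, 2 of 3 IP3 receptors, 3 of 4 TRP channels and 3 of 5 pumps were higher, and neither mitochondrial gene passed (edgeR adjusted p = 0.54 for Mcu and 0.58 for Micu2). The 3 that fell were Cacna1a, Slc8a1 and Calm3. Marker sums moved with the guide as well. Squamous markers summed to 9607 to 10044 CPM in sgScr, 5349 to 5493 in sgTgfbr2_1 and 7996 to 8182 in sgTgfbr2_2, neural markers to 45.2 to 51.4, 19.1 to 23.7 and 20.9 to 26.6, and immune markers to 14.9 to 27.9, 35.1 to 37.7 and 58.8 to 60.8. In sgScr 1 of 6 neural and 1 of 7 immune markers reached 1 CPM in every library, and in each set 2 of either list. Lyz2, Tyrobp and Cd3e had no count in these groups. In sgTgfbr2_1 against sgScr, Tubb3 (-1.49) and Stmn2 (-2.02) were lower and Snap25 (1.58) higher by edgeR. Of the immune markers, Cd74 (1.60) and Cd68 (0.68) were higher by edgeR in the same comparison. Whether neural or immune cells changed was not tested. The part of the marker sums in the expression differences was not tested.

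Among pumps, Atp2b4, a plasma membrane calcium pump, stood at 2.23, 1.70 and 1.37 CPM in sgScr. It stood at 8.15 and 10.5 in sgTgfbr2_1 and at 18.5 and 10.4 in sgTgfbr2_2. All 4 guide libraries lay above all sgScr libraries (log2 fold change 2.69 ± 0.32, edgeR adjusted p = 3.8e-04). Atp2b1 rose as well, from 136, 121 and 145 CPM to 173, 188, 193 and 176 (0.38 ± 0.08, adjusted p = 0.0050). Atp2a3, the SERCA3 pump, rose by 0.76 ± 0.19 (adjusted p = 0.010), whereas Atp2a2 did not pass (0.29 ± 0.14, adjusted p = 0.12).

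Among voltage-gated members, Cacna1g stood at 2.11, 0.964 and 2.39 CPM in sgScr, at 6.68 and 5.15 in sgTgfbr2_1 and at 19.1 and 17.5 in sgTgfbr2_2. The 3 groups did not overlap, and the pooled change was 2.68 ± 0.53 (edgeR adjusted p = 0.0036). Cacnb3 rose from 19.2, 17.1 and 25.8 CPM to 33.2 and 37.4 in sgTgfbr2_1 and to 56.7 and 55.2 in sgTgfbr2_2 (1.08 ± 0.22, adjusted p = 0.0038), again with no overlap. Cacnb1 rose from 0.820, 0.551 and 1.07 CPM to 2.23, 3.41, 5.93 and 5.00 (2.28 ± 0.41, adjusted p = 0.0020). All guide libraries lay above all sgScr libraries for both beta subunits. Cacna1b rose from 0.293, 0.505 and 1.17 CPM to 2.12, 2.88, 1.70 and 1.88 (1.62 ± 0.44, adjusted p = 0.015). Cacna2d1 rose from 0.762, 1.01 and 0.763 CPM to 4.34 and 4.61 in sgTgfbr2_1, with 1.33 and 1.10 in sgTgfbr2_2 (1.66 ± 0.56, adjusted p = 0.034). Cacna1a went the other way, from 6.03, 5.74 and 5.75 CPM to 1.14, 2.22, 4.19 and 3.05 (-1.20 ± 0.35, adjusted p = 0.021). The guide libraries lay below all sgScr libraries for Cacna1a and above them for Cacna1b and Cacna2d1.

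In the store pathway, Orai2, a pore of store-operated entry, stood at 53.7, 48.2 and 59.3 CPM in sgScr, at 152 and 138 in sgTgfbr2_1 and at 76.1 and 66.9 in sgTgfbr2_2. All guide libraries were above all sgScr libraries (0.94 ± 0.27, edgeR adjusted p = 0.019). Itpr1, the type 1 IP3 receptor, rose from 35.6, 30.6 and 42.1 CPM to 69.7, 62.6, 66.3 and 59.1 (0.77 ± 0.11, adjusted p = 7.5e-04), and values of the sets overlapped. Itpr3 rose by 0.57 ± 0.14 (adjusted p = 0.0082). Stim1, Stim2, Orai1, Orai3 and Itpr2 did not pass with the sets pooled.

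Slc8b1, the sodium-calcium-lithium exchanger of mitochondria, stood at 24.4, 21.0 and 25.2 CPM in sgScr and at 55.4, 54.0, 40.2 and 38.2 with the guide, without overlap (0.93 ± 0.15, edgeR adjusted p = 0.0013). The plasma membrane exchanger Slc8a1 fell from 2.58, 1.65 and 2.65 CPM to 0.217, 0.300, 0.644 and 0.389 (-2.58 ± 0.39, adjusted p = 9.9e-04). Camk2g, a subunit of the calmodulin-dependent kinase CaMKII, stood at 21.9, 19.8 and 22.8 CPM in sgScr, at 28.0 and 33.4 in sgTgfbr2_1 and at 67.1 and 64.5 in sgTgfbr2_2. Its guide libraries were all higher (1.10 ± 0.30, adjusted p = 0.015). Trpc1, a TRP cation channel, rose from 3.57, 3.17 and 5.60 CPM to 8.85, 8.93, 6.81 and 6.04 (0.83 ± 0.24, adjusted p = 0.019). Trpm4, a calcium-activated channel that passes sodium and potassium, rose by 0.72 ± 0.11 (adjusted p = 8.7e-04), Trpv4 by 0.43 ± 0.09 (adjusted p = 0.0045) and Camkk2, a kinase that activates AMPK and other calmodulin kinases, by 0.66 ± 0.17 (adjusted p = 0.011). Calm3 was lower, by -0.38 ± 0.12 (adjusted p = 0.030). Without sgScr replicate 1, and also without replicate 2, 7 calls were lost: Cacna1a, Cacna1b, Cacna2d1, Orai2, Trpc1, Calm3 and Camk2g. The call of Cacna2d1 was also lost without sgScr replicate 3 or either sgTgfbr2_1 library, and that of Calm3 without either sgTgfbr2_2 library.

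The remaining voltage-gated members were low in premalignant organoids. Cacna1h stood at 0.644, 0.0918 and 0.254 CPM in sgScr, at 0.272 and 1.14 in sgTgfbr2_1 and at 1.75 and 0.779 in sgTgfbr2_2, and did not pass (1.57 ± 0.72, edgeR adjusted p = 0.10). Cacnb4 stood at 1.46, 1.06 and 1.98 CPM in sgScr and between 1.75 and 2.35 in 3 guide libraries, with sgTgfbr2_1 replicate 2 the highest, and Cacnb2 at 0.644, 0.872 and 0.712 against 0.923, 0.180, 1.33 and 1.36. The groups overlapped for all 3 of these genes, and neither beta subunit passed (adjusted p = 0.17 and 0.70). Cacna2d2, Cacna1d and Cacna1e were too low to be tested with the sets pooled. Cacna2d2 was at 0.176, 0.0459 and 0.204 CPM in sgScr and 0.326, 0.419, 1.29 and 0.974 with the guide, without overlap. It passed in the authors' deposited DESeq2 result (2.38, adjusted p = 0.018). Cacna1d was at most 0.184 CPM in any premalignant library, and Cacna1e had a count in sgScr replicate 1 alone.

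The numbered sets differed from each other in 18 of 37 tested members, 10 of them higher and 8 lower in sgTgfbr2_2 than in sgTgfbr2_1, where 26.3% of all genes passed (13.2% higher and 13.1% lower). Cacna1g (log2 difference 1.63 ± 0.24, edgeR adjusted p = 2.5e-04), Camk2g (1.11 ± 0.11, adjusted p = 1.1e-05), Cacnb3 (0.67 ± 0.14, adjusted p = 0.0038) and Itpr2 (0.78 ± 0.13, adjusted p = 7.3e-04) were higher in sgTgfbr2_2. Orai2 (-1.01 ± 0.10, adjusted p = 1.2e-05), the store sensor Stim2 (-0.90 ± 0.11, adjusted p = 4.0e-05), Camkk2 (-0.57 ± 0.11, adjusted p = 0.0016), Slc8b1 (-0.47 ± 0.11, adjusted p = 0.0054) and Cacna2d1 (-1.85 ± 0.32, adjusted p = 9.0e-04) were lower. For Stim2 the sgScr libraries stood at 35.9, 40.6 and 40.2 CPM, sgTgfbr2_1 at 77.1 and 79.4, and sgTgfbr2_2 at 44.0 and 39.4. Only sgTgfbr2_1 lay apart from sgScr there. Cacna1c also differed between the sets (2.45 ± 0.67, adjusted p = 0.015), at 0.0543 and 0.359 CPM in sgTgfbr2_1 and 0.966 and 1.30 in sgTgfbr2_2. Set apart, sgTgfbr2_1 had 19 members higher and 5 lower than sgScr (51.5% of all genes passed, 24.5% higher and 26.9% lower), and sgTgfbr2_2 had 19 higher and 3 lower (58.1%, with 28.9% and 29.3%). Both comparisons use the same sgScr libraries. Without sgTgfbr2_1 replicate 1, 10 of the 18 set calls were lost, among them Cacna1a, Cacna1c, Cacnb3 and Slc8b1, and without sgTgfbr2_2 replicate 1 8 were lost, among them Cacna1a, Cacna1c and Cacnb1. Leaving out the other library of each set ended 4 and 5 calls, and Cacna2d2, which passed at 1.61 ± 0.57 (adjusted p = 0.0496), was lost in all 4 cases.

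**Figure D3:**
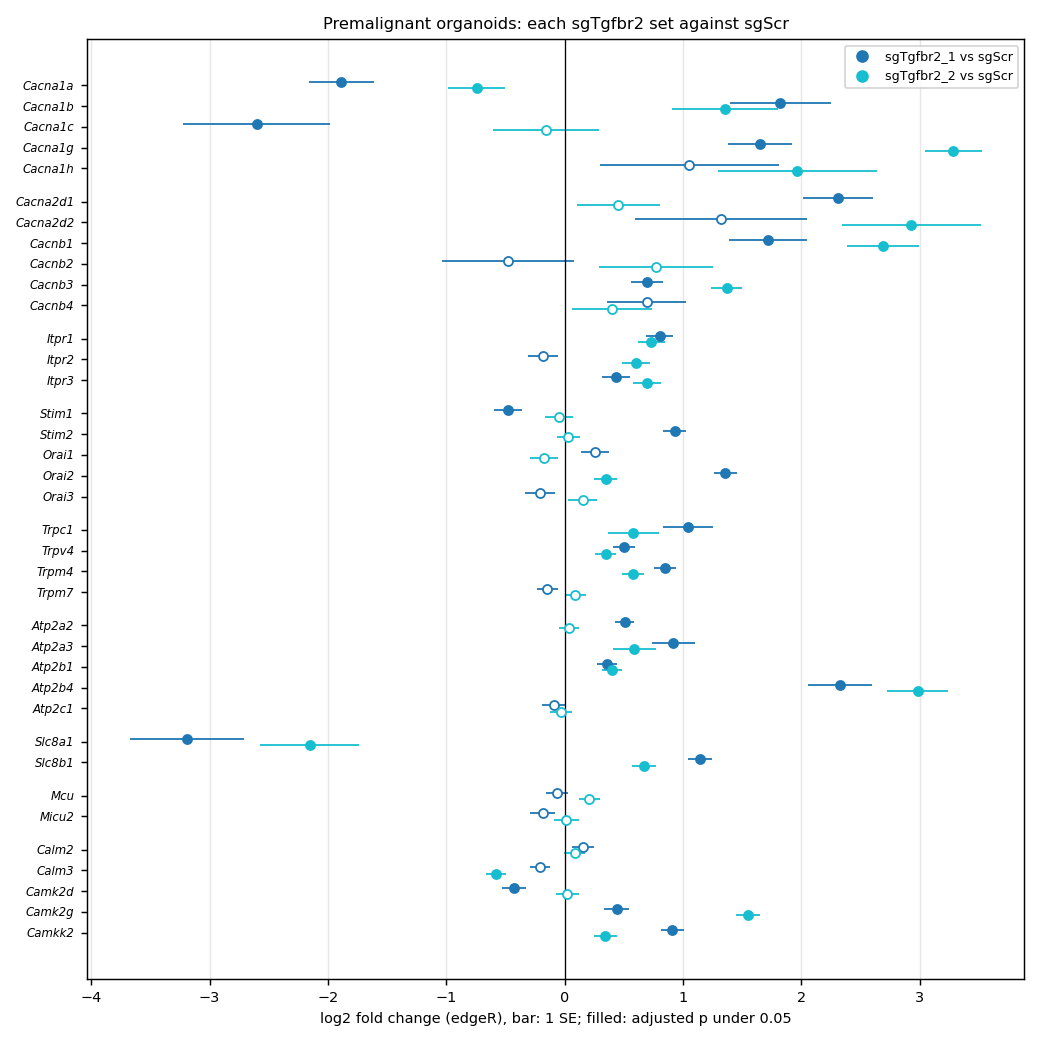
The log2 fold change of each tested member (horizontal axis, bar of 1 SE) in each sgTgfbr2 set against the same 3 sgScr libraries, ordered by role, with filled points where the edgeR adjusted p was under 0.05. Cacna1g is at 1.65 in sgTgfbr2_1 and 3.28 in sgTgfbr2_2, and Orai2 at 1.36 and 0.35.

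In the tumor libraries 23 of 38 tested members differed between sgTgfbr2 and sgScr, 15 higher and 8 lower (60.5%), beside 60.3% of all genes (29.8% higher and 30.5% lower). The members thus changed about as often as genes in general. With libraries scaled to their totals in place of TMM, the median of all genes moved from -0.02 to 0.26 and the higher share of all calls from 49.4% to 64.3%. The member counts then became 17 higher and 7 lower. The skeletal muscle and gastric gland marker sums given above separate the same 2 groups. So do the squamous markers, which summed to 118920 to 127690 CPM in sgScr and 21650 to 22426 in sgTgfbr2. The part of these marker sums in the differences was not tested.

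Of the 6 auxiliary subunits, 2 were higher and 3 lower in tumor sgTgfbr2. Cacnb1 stood at 46.0, 37.7 and 40.1 CPM in sgScr and at 2.06 and 1.06 in sgTgfbr2 (log2 fold change -4.99 ± 0.26, edgeR adjusted p = 1.7e-13). Skeletal muscle uses this subunit, and the muscle pore Cacna1s, no member, had 2867 counts in tumor sgScr and 2 in tumor sgTgfbr2, a ratio of 908 (95% counting interval 251 to 7498). Cacnb3 went the other way, from 9.34, 8.30 and 9.21 CPM to 62.4 and 65.8 (2.55 ± 0.16, adjusted p = 7.7e-12). Neither subunit's groups overlapped. Cacna2d1 was lower, at 11.9 and 12.2 CPM against 22.1, 23.6 and 23.0 (-1.21 ± 0.19, adjusted p = 1.1e-05). Cacna2d2 had 2 counts against 55, a ratio of 17.4 (4.60 to 147), and Cacnb2 was higher, at 2.55 and 2.35 CPM against 0.581 to 0.788 (1.60 ± 0.60, adjusted p = 0.026). None of the 5 tested pore genes passed by edgeR, 0 had an unadjusted p under 0.05, and 0 passed by DESeq2. The N-type pore Cacna1b was too low for the filter used here, with 31 counts in sgTgfbr2 and 2 in sgScr, a ratio of 24.5 (6.23 to 211). It passed in the authors' deposited DESeq2 result (log2 fold change 4.26, adjusted p = 0.032).

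The CPM values of Cacna1a, and those of Cacna1c and Cacna1d given above, did not overlap between the tumor groups, although none of these pores passed. Cacna1c differed by 0.14 ± 0.33 (edgeR adjusted p = 0.72) and Cacna1d by 0.38 ± 0.52 (adjusted p = 0.54). Cacna1a stood at 7.23, 8.48 and 7.48 CPM in sgScr and at 6.67 and 6.71 in sgTgfbr2, a difference of -0.50 ± 0.26 (edgeR adjusted p = 0.11). Cacna1g stood at 3.01, 1.76 and 2.02 CPM against 1.74 and 2.18, and Cacna1h at 0.739, 0.417 and 0.356 against 0.434 and 2.01. Values of both T-type pores overlapped between the groups. Cacna1e had 19 counts in sgScr and 0 in sgTgfbr2, at least 4.01-fold lower with the floor of 3 counts over the group, and all 19 came from replicates 1 and 2. Cacnb4 stood at 1.69, 1.58 and 2.73 CPM against 1.63 and 1.45 and did not pass (-0.65, adjusted p = 0.30). The call of Cacnb2 was lost without sgScr replicate 1 or 3 and without either sgTgfbr2 library.

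Orai2 stood at 7.50, 3.85 and 6.47 CPM in tumor sgScr and at 31.6 and 37.9 in tumor sgTgfbr2, without overlap (2.27 ± 0.23, edgeR adjusted p = 1.8e-08). Stim2 rose from 17.3, 19.1 and 17.3 CPM to 74.4 and 76.2 (1.78 ± 0.15, adjusted p = 9.9e-10). Its partner Stim1 fell, from 82.4, 65.2 and 73.8 to 35.0 and 38.8 (-1.29 ± 0.15, adjusted p = 1.7e-07). The 2 store sensors thus moved in opposite directions. Itpr3 rose from 44.8, 28.8 and 35.1 CPM to 179 and 216 (2.16 ± 0.15, adjusted p = 5.8e-11), and Itpr2 fell from 101, 82.2 and 85.3 to 32.8 and 41.5 (-1.55 ± 0.15, adjusted p = 1.2e-08). IP3 receptor types therefore also split in direction, with Itpr1 higher by 0.58 ± 0.19 (adjusted p = 0.010). The call of Itpr1, and that of Atp2a2 (0.44 ± 0.12, adjusted p = 0.0039), was lost without sgTgfbr2 replicate 2.

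Of the pumps, Atp2b4 fell in tumor sgTgfbr2, from 36.8, 24.2 and 30.6 CPM to 11.8 and 10.7 (-1.72 ± 0.20, edgeR adjusted p = 1.9e-07). Atp2b1 rose from 38.0, 35.2 and 41.8 CPM to 123 and 170.4 (1.65 ± 0.15, adjusted p = 2.0e-09). Atp2a3 rose from 7.13, 4.50 and 4.22 CPM to 20.1 and 22.4 (1.72 ± 0.24, adjusted p = 2.6e-06). None of these groups overlapped. Slc8a1 rose by 1.15 ± 0.20 (adjusted p = 3.9e-05), Trpm4 by 1.08 ± 0.16 (adjusted p = 5.0e-06), Slc8b1 by 0.84 ± 0.16 (adjusted p = 1.3e-04), Camk2d, another CaMKII subunit, by 0.76 ± 0.14 (adjusted p = 7.1e-05) and Mcu, the pore of the mitochondrial uniporter, by 0.74 ± 0.15 (adjusted p = 2.9e-04). Trpv6 fell, at 0.108 and 0.392 CPM against 1.58, 1.90 and 2.67 (-3.30 ± 0.77, adjusted p = 8.4e-04). Calm2 and Calm3 did not pass.

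**Figure D4:**
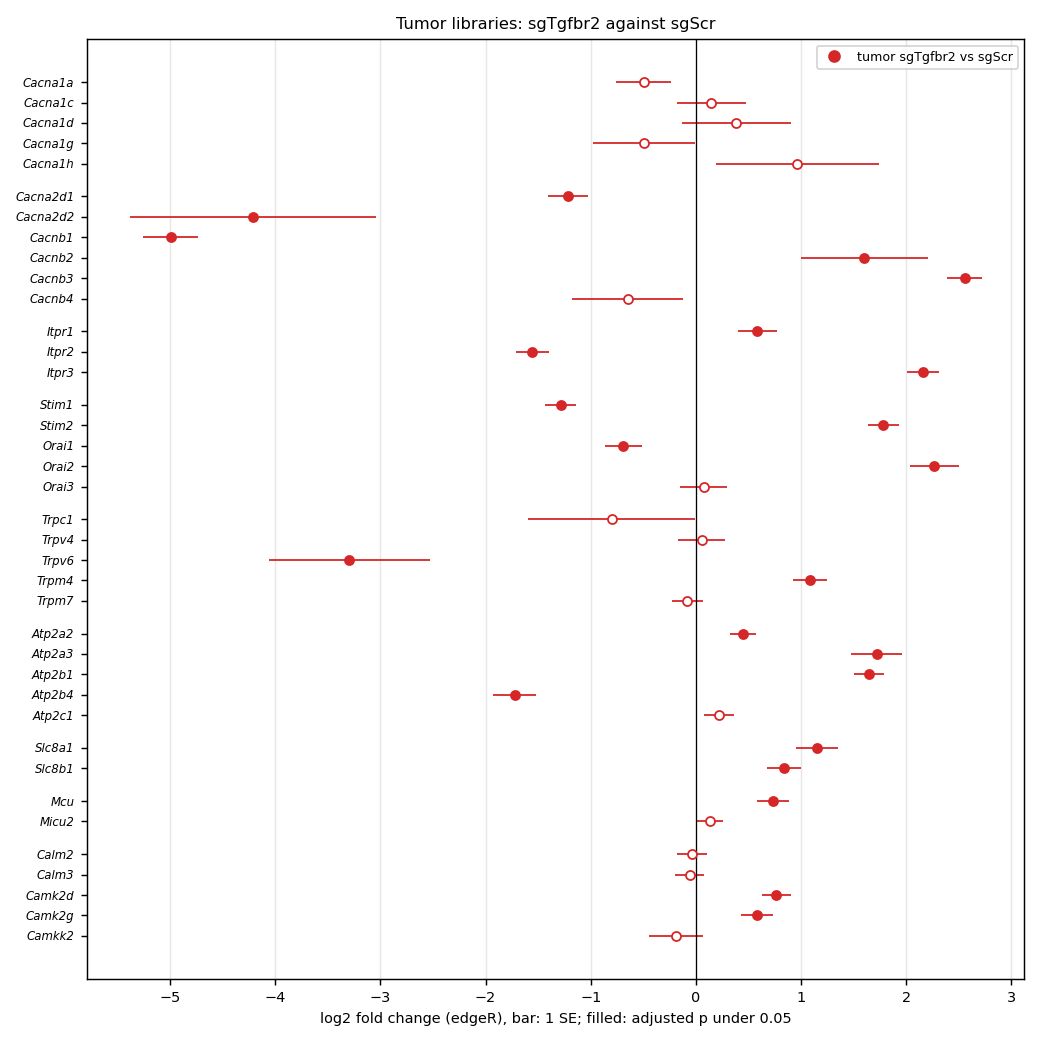
The log2 fold change of each tested member between tumor sgTgfbr2 (n = 2) and tumor sgScr (n = 3), with bars of 1 SE and filled points where the edgeR adjusted p was under 0.05. Cacnb1 at -4.99 and Cacnb3 at 2.55 mark the ends among members above 5 CPM.

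The difference of the Tgfbr2 guide effect between tumor and premalignant libraries was tested in 1 fit of the 12 untreated libraries. Of 39 tested members 20 passed (51.3%), 9 with a more positive and 11 with a more negative effect in the tumor libraries, beside 49.5% of all genes (25% and 24.5%). Cacnb1 (log2 difference -7.30 ± 0.54, edgeR adjusted p = 3.6e-08), Atp2b4 (-4.43 ± 0.43, adjusted p = 7.5e-07) and Cacna1g (-3.19 ± 0.74, adjusted p = 0.0022) had the more negative effect in tumor libraries. Slc8a1 (3.71 ± 0.41, adjusted p = 2.6e-06), Itpr3 (1.57 ± 0.23, adjusted p = 4.8e-05), Cacnb3 (1.47 ± 0.29, adjusted p = 6.9e-04), Orai2 (1.32 ± 0.39, adjusted p = 0.011) and Atp2b1 (1.26 ± 0.17, adjusted p = 1.5e-05) had the more positive effect. With library totals in place of TMM the higher share of all calls moved from 50.6% to 61.9%, and the members became 13 and 8. Stage cannot be told apart from the table and from the muscle, stromal and gastric RNA of the tumor libraries.

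Pinaverium bromide, given to ask how blocking calcium channels affects Tgfbr2-deficient tumor organoids, went with a change in most genes tested, calcium genes among them. Of 33 tested members 21 passed, 9 higher and 12 lower (63.6%), beside 73.3% of all 12801 genes tested (36.5% higher and 36.8% lower). The members' share was thus not above that of genes in general. Atp2b1 was higher and Camkk2 lower by about the same amount, and Mcu, Orai2, Atp2a2, Itpr2 and Trpc1 were higher. Scaling mattered here: with library totals in place of TMM the median of all genes moved from -0.01 to -0.15, the higher share of all calls from 49.7% to 34.9%, and the members became 7 higher and 18 lower. Skeletal muscle markers summed to 5.07 to 5.92 CPM under PB and 8.18 to 8.40 in vehicle, and immune markers to 39.4 to 46.2 and 38.1 to 43.3. Of these, 1 of 9 skeletal muscle markers reached 1 CPM in every library of each group. Of the 7 immune markers, 1 did so in vehicle and 2 under PB. The squamous markers were at 7137 to 7212 CPM under PB and 9072 to 9217 in vehicle, and their part in the results was not tested.

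Among pumps, Atp2b1, which exports calcium across the plasma membrane, stood at 248, 262 and 255 CPM in vehicle and at 492, 502 and 489.7 under PB. The groups lay far apart, and the change was 1.09 ± 0.02 (edgeR adjusted p = 1.6e-47). Atp2a2, which refills the endoplasmic reticulum, rose from 553, 557 and 541 CPM to 672, 659.7 and 676 (0.42 ± 0.02, adjusted p = 1.8e-26). Atp2b4, Atp2a3 and Atp2c1 did not pass. Atp2b2, the neuronal PMCA2 pump, had no count in either group.

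In the store pathway Orai2 stood at 36.1, 38.9 and 36.8 CPM in vehicle and at 50.1, 49.3 and 47.9 under PB, without overlap (0.54 ± 0.05, edgeR adjusted p = 6.2e-14). Orai3 was lower, from 15.3, 14.0 and 17.2 CPM to 12.2, 8.78 and 9.85 (-0.45 ± 0.10, adjusted p = 9.8e-05), and Stim2 was lower, from 39.4, 36.4 and 41.8 to 25.7, 26.6 and 27.6 (-0.42 ± 0.06, adjusted p = 2.2e-08). Orai1 and Stim1 did not pass. Of the IP3 receptors, Itpr2 rose from 84.5, 89.9 and 81.8 CPM to 97.0, 102 and 101 (0.37 ± 0.04, adjusted p = 3.7e-13). Itpr3, the most abundant receptor, passed at 0.16 ± 0.02 (adjusted p = 3.3e-08), although its CPM of the library total overlapped, at 433 to 462 in vehicle and 451 to 467 under PB. That call was lost with library totals in place of TMM, and Itpr1 was lower by -0.14 ± 0.05 (adjusted p = 0.010).

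Mcu, the mitochondrial uniporter pore, stood at 56.3, 55.1 and 53.8 CPM in vehicle and at 81.4, 83.5 and 79.1 under PB, without overlap (0.70 ± 0.04, edgeR adjusted p = 3.3e-23). Its gatekeeper Micu2 did not pass (-0.08 ± 0.04, adjusted p = 0.098). Camkk2 stood at 19.1, 20.2 and 19.2 CPM in vehicle and at 8.67, 7.93 and 8.76 under PB, and fell (-1.07 ± 0.10, adjusted p = 8.9e-16). Camk2g fell from 51.8, 56.2 and 55.2 CPM to 33.8, 37.3 and 36.8 (-0.46 ± 0.05, adjusted p = 2.1e-11), while Camk2d passed upward by 0.21 ± 0.04 (adjusted p = 2.6e-05). That call too was lost with library totals in place of TMM. The calmodulin gene Calm3 fell from 202, 196 and 206 CPM to 134, 128 and 126 (-0.50 ± 0.03, adjusted p = 6.3e-24), and Calm2 fell by 0.22 ± 0.03 on the log2 scale (adjusted p = 1.6e-11). The 5 calmodulin and kinase members passed, 1 higher and 4 lower, where 73.3% of all genes passed.

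Trpm4 fell from 78.2, 74.9 and 80.2 CPM to 47.1, 48.0 and 48.3 (-0.56 ± 0.05, edgeR adjusted p = 8.4e-18), and Trpm7, a channel fused to a kinase, from 107, 113 and 108 to 73.6, 71.9 and 71.0 (-0.46 ± 0.04, adjusted p = 4.8e-17). Neither pair of groups overlapped. Trpc1 was the TRP member that rose, from 1.39, 0.977 and 0.999 CPM to 2.93, 2.38 and 2.12 (1.27 ± 0.27, adjusted p = 2.5e-05). Outside the members, the TRP channel gene Trpv3 rose too, with means of 31.4 CPM under PB and 13.9 in vehicle (1.31 ± 0.08, adjusted p = 1.6e-24). Trpm6, also no member, rose by 0.41 ± 0.16 (adjusted p = 0.017). Both are on the list of other cation entry channels, where 2 of 9 tested genes were higher and 3 lower. Trpv4 was lower by -0.13 ± 0.05 (adjusted p = 0.013), and Slc8a1, near 1 CPM, by -1.02 ± 0.40 (adjusted p = 0.018). DESeq2 did not keep the calls of Trpv4 and Slc8a1. Leaving out 1 library ended them too: Trpv4 without PB replicate 3 or vehicle replicate 3, Slc8a1 without PB replicate 1 or vehicle replicate 2 or 3, and the call of Itpr1 was lost without PB replicate 2.

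Cacna1d was the voltage-gated member that rose under PB. Its values were 0, 0.195 and 0 CPM in vehicle and 0.667, 0.991 and 0.901 under PB. Every PB library lay above every vehicle library, with 39 counts against 3, a ratio of 13.6 (95% counting interval 4.33 to 69.0), and the gene passed the test (edgeR adjusted p = 1.1e-06). Cacna1d met the count filter through its PB libraries alone, where it was high. Its p-value and the lack of overlap therefore describe the counts and are no independent support for a rise. All PB values remained under 1 CPM. An exon of Cacna1d overlaps the choline dehydrogenase gene Chdh on the other strand, and the counting is not stated to use strand, so reads from the overlap cannot be told apart. Chdh itself was lower under PB, at a mean of 3.15 CPM against 11.0. In all, 13 of the 41 members have an exon overlapping a gene on the opposite strand.

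**Figure D5:**
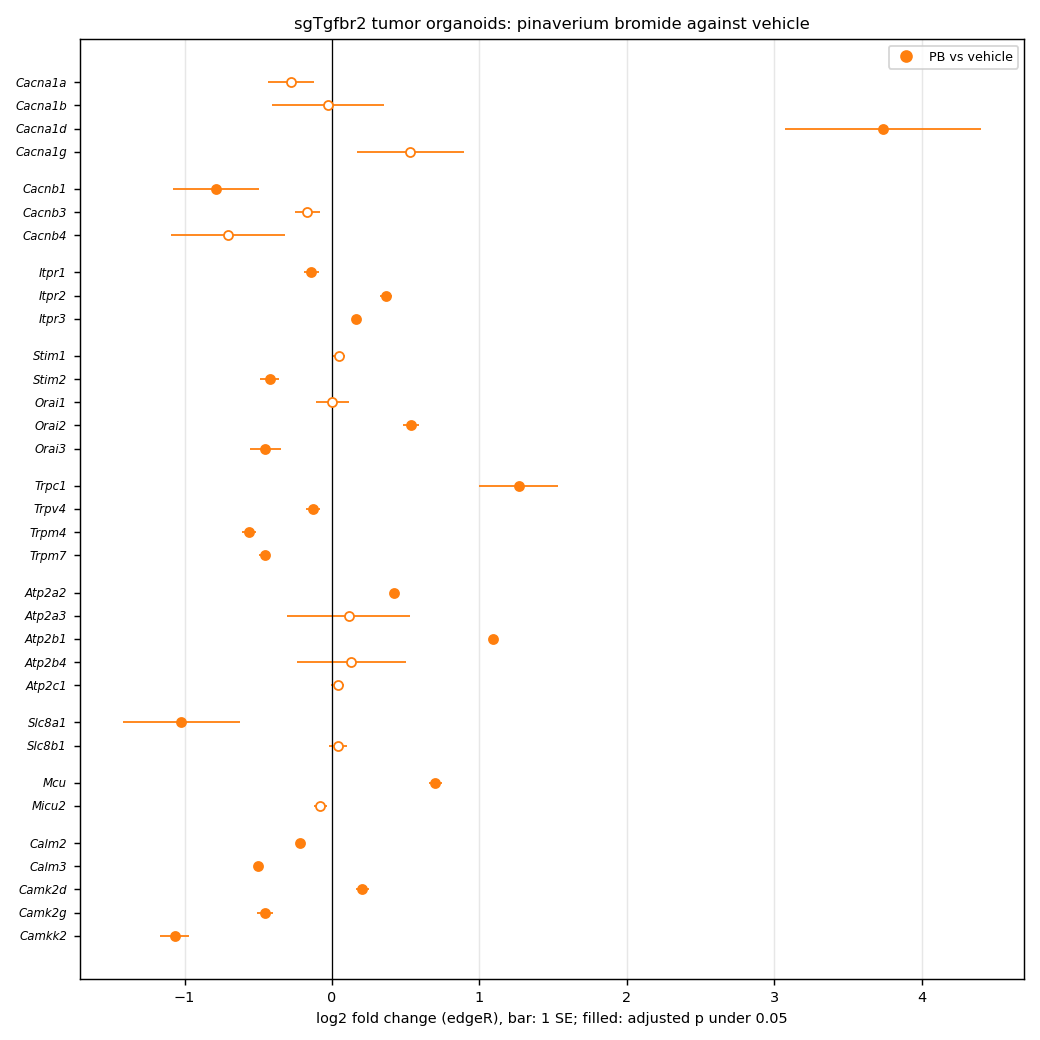
The log2 fold change of each tested member between PB (n = 3) and vehicle (n = 3), with bars of 1 SE and filled points where the edgeR adjusted p was under 0.05. Atp2b1 at 1.09 and Camkk2 at -1.07 have narrow bars, and Cacna1d at 3.74 a wide one, since it rests on 39 counts against 3.

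The promoters of Atp2b1, Orai2 and Camkk2 are shown as examples of genes that changed without overlap in several comparisons. Other members, such as Cacnb3, did so too, and Camkk2 overlapped between the tumor groups. RefSeq sequences of GRCm38.p6 around annotated starts were matched for 32 of the 41 genes, and for each gene here the most upstream start in the table was taken. Capitals mark CACGTG, the E-box bound by MYC and related factors, which reads the same on both strands. It was searched because every group is labelled Myc OE, and it was chosen after the sequences had been seen.
Atp2b1: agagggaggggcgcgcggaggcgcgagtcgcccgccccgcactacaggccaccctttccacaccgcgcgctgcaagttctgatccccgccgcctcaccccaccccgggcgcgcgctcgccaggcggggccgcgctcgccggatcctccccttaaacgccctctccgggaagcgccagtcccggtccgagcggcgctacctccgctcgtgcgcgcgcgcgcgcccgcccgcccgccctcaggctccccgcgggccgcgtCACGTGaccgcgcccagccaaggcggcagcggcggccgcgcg
Orai2: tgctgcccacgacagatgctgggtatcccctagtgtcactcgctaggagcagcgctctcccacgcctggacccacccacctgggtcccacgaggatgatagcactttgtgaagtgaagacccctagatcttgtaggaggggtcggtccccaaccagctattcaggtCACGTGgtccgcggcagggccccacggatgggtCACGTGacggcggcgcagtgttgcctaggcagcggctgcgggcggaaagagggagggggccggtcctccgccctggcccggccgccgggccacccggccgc
Camkk2: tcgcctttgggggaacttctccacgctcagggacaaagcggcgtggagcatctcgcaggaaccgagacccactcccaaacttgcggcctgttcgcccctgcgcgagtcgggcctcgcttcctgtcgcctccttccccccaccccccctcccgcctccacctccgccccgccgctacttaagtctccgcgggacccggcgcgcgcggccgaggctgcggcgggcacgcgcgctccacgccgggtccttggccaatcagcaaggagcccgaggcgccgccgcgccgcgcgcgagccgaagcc
The windows of 300 bases lie at chr10:98914392-98914691 on the plus strand for Atp2b1, chr5:136170607-136170906 on the minus strand for Orai2 and chr5:122779361-122779660 on the minus strand for Camkk2. CACGTG occurs 1 time in the Atp2b1 window, 2 times in the Orai2 window and 0 times in the Camkk2 window. Over all RefSeq promoter windows of this length 7.2% hold it, and 4 of the 44 windows of matched members do (9.1%). The SMAD half-site CAGAC, searched with its complement GTCTG, is absent from all 3 windows and present in 49.6% of all windows. A match describes the letters and is not evidence of binding.

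Other calcium pathway genes, from 10 lists of 114 symbols of which 113 were found, gave context. In premalignant organoids 20 of 63 tested were higher and 11 lower, beside 22.7% and 23.5% of all genes. In tumor libraries 11 of 86 were higher and 37 lower, beside 29.8% and 30.5% of all genes, and with library totals in place of TMM these became 23 and 29. Under PB 23 of 61 were higher and 15 lower, beside 36.5% and 36.8% of all genes, so that the higher share was near that of genes in general, and with library totals these became 18 and 25. In premalignant organoids the calcium-activated transcription factor gene Nfatc2 was at a mean of 10.9 CPM with the guide and 0.728 without (log2 fold change 3.81 ± 0.34, edgeR adjusted p = 1.1e-04), the second Golgi pump Atp2c2 at 44.0 and 15.9 (1.40 ± 0.15, adjusted p = 2.1e-04), and the magnesium and calcium channel Trpm6 at 7.39 and 0.266 (4.73 ± 0.76, adjusted p = 0.0013). The sets differed for Trpm6, at 11.9 CPM in sgTgfbr2_1 and 2.85 in sgTgfbr2_2 (log2 difference -2.04 ± 0.25, adjusted p = 4.4e-05). In the tumor libraries 8 of 11 muscle release and buffering genes were lower in sgTgfbr2 and 1 higher, beside 30.5% and 29.8% of all genes. They include the muscle SERCA pump Atp2a1, at 0.791 and 746 CPM (-10.14 ± 0.29, adjusted p = 4.7e-18), and follow the muscle markers in direction.

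Under PB 7 of 8 tested genes of endoplasmic reticulum calcium binding and store regulation were higher and 0 lower by edgeR, also at an unadjusted p under 0.05, where 36.5% of all genes were higher and 73.3% passed. With library totals in place of TMM that list became 5 higher and 2 lower. Calreticulin, Calr, the main luminal calcium buffer, was at a mean of 854 CPM under PB and 495 in vehicle (log2 fold change 0.93 ± 0.02, edgeR adjusted p = 4.9e-46). The chaperone gene Canx was at 517 and 422 (0.43 ± 0.02, adjusted p = 5.5e-25), and Saraf, which inactivates store-operated entry, at 134 and 103 (0.52 ± 0.03, adjusted p = 9.8e-23). All 5 tested genes on the list of other mitochondrial uniporter genes were higher, also with library totals in place of TMM. Among them, Mcur1 was at 28.9 and 19.6 CPM (0.69 ± 0.07, adjusted p = 1.0e-13) and Smdt1 at 55.5 and 44.1 (0.47 ± 0.05, adjusted p = 8.9e-13). Letm1, on that list although it encodes a cation exchanger and no uniporter subunit, was at 66.6 and 52.9 (0.47 ± 0.05, adjusted p = 2.0e-14). Of 10 calcineurin and NFAT genes 6 were higher and 2 lower (5 and 4 with library totals), with the calcineurin catalytic gene Ppp3ca at 323 and 243 CPM (0.55 ± 0.03, adjusted p = 3.5e-29) and Nfatc3 at 62.4 and 95.1 (-0.47 ± 0.04, adjusted p = 1.3e-15). Over all 10 lists DESeq2 called 20 of 61 tested genes higher and 13 lower, beside 4337 higher and 4191 lower of all 12801 genes. The higher share was thus near that of genes in general. The median log2 fold change was 0.28 over the store list and 0.47 over the uniporter list, against -0.01 over all genes.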

How the data were processed

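Bulk RNA of 18 libraries was sequenced. Per the submitters' processing notes the authors used STAR 2.6.0a, DESeq2 1.26.0 and the build mm10. How reads were counted, with which strand setting and annotation, is not given in the sources used here. As deposited, tables hold raw counts per gene with the authors' log2 fold changes and p-values, and 18 normalized columns that were not used.

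Levels are CPM of the library total; the raw counts were tested with edgeR 4.0.16 in R 4.3.3 (limma 3.58.1): quasi-likelihood F-test, two-sided, filterByExpr with a minimum count of 10, TMM, Benjamini-Hochberg adjustment over all genes tested, threshold 0.05. Each deposited table was fitted alone, and the premalignant and tumor tables together for the difference of effects. CPM levels set across tables carry no test. The test was checked on simulated counts. Ratios of low counts have exact 95% intervals. Depths and floors are in the report.

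Alternatives were DESeq2 1.42.0, upper-quartile scaling, other filters, each library left out, a replicate block, the sgTgfbr2 sets apart and, chosen after seeing the data, library-total scaling. Library-level values are given for voltage-gated members and, per comparison, for up to 8 called members of at least 5 CPM with the largest change; others were added for their role. Up to 3 genes per other list with the smallest p were eligible. Members and lists were chosen with earlier results of these data known.

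Positions and exon lengths are from GENCODE M21 (GRCm38). In the authors' deposited table, 22 members have an adjusted p-value under 0.05 in premalignant, 24 in tumor and 19 in PB libraries. Over all 24421 genes, with or without an adjusted p-value, these counts are 6354, 8833 and 8434.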

Additional observations from a re-analysis of the deposited data

Results flagged for a closer look

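The effect of the Tgfbr2 guide differed between the numbered premalignant sets, by the edgeR test of the difference, in 18 of 37 tested members, where 26.3% of all genes passed. The log2 differences, sgTgfbr2_2 minus sgTgfbr2_1, were 1.14 for Cacna1a, 2.45 for Cacna1c, 1.63 for Cacna1g, -1.85 for Cacna2d1, 1.61 for Cacna2d2, 0.971 for Cacnb1 and 0.671 for Cacnb3 among voltage-gated genes. They were 0.782 for Itpr2, 0.429 for Stim1, -0.90 for Stim2, -0.43 for Orai1 and -1.01 for Orai2 in the store pathway. They were -0.472 for Atp2a2, -0.475 for Slc8b1, -0.378 for Calm3, 0.448 for Camk2d, 1.11 for Camk2g and -0.565 for Camkk2 among the rest.

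The effect also differed between tumor and premalignant libraries in 20 of 39 tested members (51.3%), near the 49.5% of all genes. The log2 differences, tumor minus premalignant, were -3.19 for Cacna1g, -2.87 for Cacna2d1, -6.58 for Cacna2d2, -7.30 for Cacnb1 and 1.47 for Cacnb3. They were -1.83 for Itpr2, 1.57 for Itpr3, -1.05 for Stim1, 1.23 for Stim2, -0.757 for Orai1 and 1.32 for Orai2. They were -1.65 for Trpc1, -3.35 for Trpv6, 0.951 for Atp2a3, 1.26 for Atp2b1, -4.43 for Atp2b4, 3.71 for Slc8a1, 0.641 for Mcu, 0.933 for Camk2d and -0.854 for Camkk2. The skeletal muscle, gastric gland and squamous marker sums of the tumor groups stand beside these values, and their part was not tested.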

How the results depend on the processing

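In the premalignant comparison the members called lower, 3 in all, became 5 with sgTgfbr2_1 alone and 6 with the mean of the set means. Leaving out 1 library gave 12 to 19 higher and 1 to 3 lower members there, 4 to 15 higher and 5 to 9 lower between the sets, 13 to 15 and 7 to 8 in tumor libraries, 9 and 10 to 13 under PB, and 8 to 10 and 9 to 11 for tumor minus premalignant. In the last, Trpc1, Trpv6, Atp2a3, Orai1 and Camkk2 lost their calls without some library. With library totals in place of TMM, Stim1 turned to -0.09451 (edgeR adjusted p = 0.0405) and Atp2c1 to -0.1011 (adjusted p = 0.0404) under PB; neither had passed before, and the cause was not tested. The same scaling gave 23 higher other pathway genes in tumor libraries in place of 11, and 25 lower under PB in place of 15. The count of expressed voltage-gated members became 8 at 0.5 CPM and 5 by the group mean in premalignant sgScr (3 to 5 without 1 library), 4 at 2 CPM in sgTgfbr2_2, 5 at 2 CPM in tumor sgScr, and 6 at 0.5 CPM in vehicle and in PB. Depth limits genes below about 1 CPM.

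Replicate numbers are shared between groups, but same-numbered libraries did not deviate together (correlations of -0.104 to 0.142), so they were not taken as pairs. With a replicate block the premalignant calls were 13 higher and 1 lower, the tumor calls 14 and 8, the PB calls 9 and 12, the set calls 15 and 9, and the tumor minus premalignant calls 5 and 10. The shares of all genes called with a block or without a library are not given here. These member counts therefore do not show whether the members stand apart from genes in general.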
